A study of Homo sapiens with 2 samples.

Results

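Circular RNAs (circRNAs) of 5 host genes that are often used as reference examples of circRNAs in human cells, ZKSCAN1, HIPK3, UBAP2, PVT1 and PCMTD1, were examined. The members were all circRNAs of the deposited table whose host field held exactly 1 name and that name was one of these genes, which gave 8 of 1485 circRNAs. UBAP2 gave 4 of them and each of the other genes gave 1. A circRNA of the similarly named gene UBAP2L was not a member. The RNA came from SW620, a human colorectal cancer cell line. One library was made from cells treated with Hedyotis diffusa-Sculellaria barbata (HD-SB), a pair of medicinal herbs, at 1 mg/mL for 24 h, and 1 library was made from control cells, for which the labels state no vehicle. In both libraries ribosomal RNA was removed and RNase R, an enzyme that degrades linear RNA, was applied before sequencing. There was 1 library per group, so no value has a replicate error, no test between treated and control cells was possible, and every difference below is between 2 libraries.

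A circRNA forms when the splicing machinery joins the end of an exon, the splice donor, to the start of the same or an earlier exon, the splice acceptor. The resulting back-splice junction is absent from the linear transcript, and reads that cross it are what the table reports. Such circles lack free ends and outlast most linear RNA, and many begin at an early exon with long introns on both sides. Those of ZKSCAN1 and HIPK3 are textbook cases in which inverted repeats in the neighbouring introns pair and bring the junction together. Several circRNAs, that of HIPK3 among them, have been described as binding microRNAs.

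The control library held 91 back-splice reads on 32 circRNAs, and the HD-SB library held 11570 reads on 1475 circRNAs. A circRNA was listed in a library only from 2 reads, so a circRNA that is not listed had 0 or 1 read. Both totals count listed circRNAs only, so each share of a library below is a share of its listed reads. Of the listed circRNAs, 43.75% in the control and 14.5% in HD-SB had 2 reads. How many unlisted reads each library had is not known, and they would lower its shares. In the control, 2 reads were already 2.20% of the library, and only 1 circRNA of the HD-SB library reached that share. For the labelled cell type, 5 circRNAs came from 3 of 15 intestinal epithelial marker genes (VIL1, EPHB2 and EPCAM), all in HD-SB. None came from the 8 fibroblast and smooth muscle, 7 leukocyte or 6 endothelial and neural marker genes searched. Most epithelial markers gave none either, so the absence of the other markers says little. The control listed none of these genes, so its cell type could not be checked this way. All intervals are 95% Clopper-Pearson intervals. They cover counting error alone, as reads that amplification copied from 1 molecule count several times.

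The coordinates of the table did not follow the GRCh38 annotation, but the genomic span of a circle does not depend on where the numbering starts. The span of each circRNA was therefore compared with the spans of all exon pairs of its host in GENCODE 29. For 7 of the 8 circRNAs exactly 1 exon pair of the host had the same span to the base, out of 68 distinct pairs in ZKSCAN1, 226 in HIPK3, 80 in PCMTD1 and 620 in UBAP2. Over the whole table, 93.75% of the 1312 circRNAs whose host was found in GENCODE had exactly 1 such pair, and 5.11% had none. In UBAP2 all 4 circRNAs lay 2 bases from their exon pair, and in ZKSCAN1 the distance was 402377 bases. The assignment rests on host name and length, not on sequence.

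The junctions that these exons imply are shown because they are what a back-splice read has to cross, and because those of UBAP2 show how its circles share splice ends. Each line gives 15 bases of the donor exon in lower case followed by 15 bases of the acceptor exon in capitals, read 5′ to 3′ on the transcribed strand from GENCODE 29 transcripts (GRCh38).
ZKSCAN1 hsa_circ_0001727, end of exon 3 to start of exon 2: tcttacagtcacgagGAATAGTAAAGAAAC
HIPK3 hsa_circ_0000284, end of exon 2 to start of exon 2: atctcggtactacagGTATGGCCTCACAAG
UBAP2 hsa_circ_0001847, end of exon 12 to start of exon 9: tctcctcagagcctgAACTGGCATCAAATA
UBAP2 hsa_circ_0003141, end of exon 12 to start of exon 7: tctcctcagagcctgGATTTGGACGTGGCA
UBAP2 hsa_circ_0001850, end of exon 10 to start of exon 7: gactggactgaagatGATTTGGACGTGGCA
UBAP2 hsa_circ_0001851, end of exon 8 to start of exon 7: cagatgagggaactgGATTTGGACGTGGCA

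ZKSCAN1 encodes a zinc finger transcription factor with a KRAB domain. Its circRNA hsa_circ_0001727 (chromosome 7, 99621042 to 99621930 as deposited) spanned 889 bp and matched exons 2 and 3 of 6, on the plus strand at 100023419 to 100024307 in GRCh38. These exons add up to 668 nt, of which 580 nt are coding and 88 nt untranslated. A second annotated transcript uses the same outer ends with 578 nt of exon, and a read across the junction cannot tell them apart. The control had 3 reads of this circle, 3.30% of the library (0.685 to 9.33), and HD-SB had 33 reads, 0.285% (0.196 to 0.400). It was the only circRNA that the table gives for ZKSCAN1, and it had rank 29 among the circRNAs of the HD-SB library. The control share was 11.6 times that in HD-SB (2.27 to 36.8), and the intervals of the shares did not overlap. That is a log2 ratio of HD-SB to control of -3.53, which turned to 1.09 when the libraries were scaled by the median ratio of the 22 circRNAs listed in both. The scaled interval took in an equal share.

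HIPK3 encodes a serine/threonine kinase that interacts with homeodomain proteins. Its circRNA hsa_circ_0000284, the isoform commonly called circHIPK3, was at the listing minimum in HD-SB with 2 reads, 0.0173% (0.00209 to 0.0624), and was not listed in the control. It was 1 of 214 HD-SB circRNAs with 2 reads, which share the lowest rank (1262 to 1475), so 85.5% of the listed circRNAs had more reads. The circle (chromosome 11, 33307959 to 33309057 as deposited) spanned 1099 bp, all of it exon 2 of a 17-exon transcript (33286413 to 33287511 in GRCh38, plus strand). Of these, 1097 nt are coding, and the start codon ATG follows the junction after 2 bases, as the printed sequence shows. It was longer than 96.7% of the 1230 exon-matched circRNAs, and its introns were long too, at 28523 bp before and 40998 bp after the circle. At the HD-SB share, 91 control reads would hold 0.0157 reads of this circle, so its absence from the control list gives no information on a difference.

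UBAP2 encodes a protein with a ubiquitin-associated domain, and it was the only one of the 5 hosts with several circRNAs. All 4 lay within exons 7 to 12 of 29, on the minus strand of chromosome 9, and consisted of coding sequence only. The circle of exons 9 to 12, hsa_circ_0001847 (33953283 to 33963789 as deposited, 377 nt of exon), had 3 control reads, 3.30% (0.685 to 9.33), and 59 HD-SB reads, 0.510% (0.388 to 0.657). It had rank 18 in HD-SB, and its control share was 6.46 times that in HD-SB (1.30 to 19.8). Its log2 ratio of HD-SB to control turned from -2.69 to 1.93 under median-ratio scaling. The other circles all began at exon 7. Exons 7 to 10, hsa_circ_0001850 (33960824 to 33973235, 278 nt), had 4 HD-SB reads and was not listed in the control. Exons 7 to 12, hsa_circ_0003141 (33953283 to 33973235, 536 nt), had 3 HD-SB reads and was not listed in the control either. Exons 7 to 8, hsa_circ_0001851 (33971649 to 33973235, 159 nt), was the reverse case, with 2 control reads, 2.20% (0.267 to 7.71), and no listing in HD-SB, where 0 or 1 read allows at most 0.0481%.

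**Figure D1:**
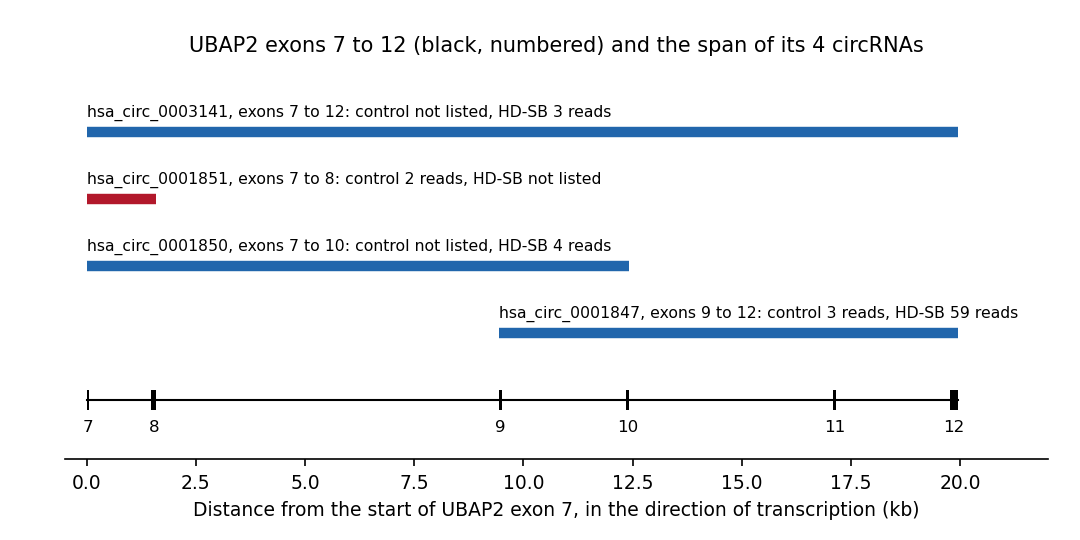
UBAP2 exons 7 to 12 drawn to scale (black, numbered; distance in kb from the start of exon 7) with a bar for the span of each of its 4 circRNAs, blue where the circRNA is listed in HD-SB and red where it is listed in the control alone. The circles of exons 7 to 8 and of exons 9 to 12 lie side by side without overlap, and the circle of exons 7 to 12 covers both.

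The UBAP2 circles used 2 acceptors and 3 donors, as the map of exons 7 to 12 shows. In HD-SB the acceptor of exon 9 carried 59 of the 66 UBAP2 reads, 89.4% (79.4 to 95.6), and the acceptor of exon 7 carried 7 reads, 10.6% (4.37 to 20.6). The donor of exon 12 carried 62 reads, 93.9% (85.2 to 98.3), and that of exon 10 carried 4. In the control the acceptor of exon 9 carried 3 reads and that of exon 7 carried 2, both on the donor of exon 8. Of the 5 control reads, 60.0% (14.7 to 94.7) fell on hsa_circ_0001847, an interval that takes in the HD-SB share of 89.4%. The other 40.0% (5.27 to 85.3) fell on hsa_circ_0001851, which was not listed in HD-SB. Taken at 0 of the 66 HD-SB reads, its share there has an interval of 0 to 5.44%, which overlaps that in the control. As it may have had 1 unlisted read, the overlap may be wider. Among the 22 hosts with at least 4 circRNAs over both libraries, the leading isoform held a median of 43.2% of the host's HD-SB reads. UBAP2 was second in that order, after ATXN7 with 93.0%. UBAP2 is in this set only through hsa_circ_0001851, which HD-SB does not list, so its 89.4% is over 3 isoforms. These shares count reads of 1 library and were not tested.

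PVT1 is a long non-coding RNA gene in a region that is often amplified in tumours. Its circRNA hsa_circ_0001821, the isoform commonly called circPVT1 (chromosome 8, 128902835 to 128903244 as deposited, 410 bp), had 93 reads in HD-SB, 0.804% (0.649 to 0.984), and rank 10 among all circRNAs of that library. It was the most abundant of the 8 circRNAs there and held 46.7% of their HD-SB reads. It was not listed in the control, where 0 or 1 read allows up to 5.91%, and at the HD-SB share 91 control reads would hold 0.731 reads. A higher share in HD-SB was therefore not detectable at this depth. In the other direction, the interval allows a control share of up to 7.72 times that in HD-SB. Exon pairs of PVT1 had this span of 410 bp at 2 different positions, so its exons were not assigned.

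PCMTD1 encodes a protein with a domain of the L-isoaspartate methyltransferase family. Its circRNA hsa_circ_0001801 (chromosome 8, 52773405 to 52773806 as deposited) spanned 402 bp and matched exon 3 of 7 alone, with 307 coding and 95 untranslated nt. The control had 3 reads, 3.30% (0.685 to 9.33), and HD-SB had 5 reads, 0.0432% (0.0140 to 0.101). At the control share, HD-SB would hold 381 reads. The control share was 76.3 times that in HD-SB (11.8 to 392). Under median-ratio scaling the log2 ratio of HD-SB to control went from -6.25 to -1.63, with an interval that then took in an equal share. In HD-SB it shared ranks 613 to 784 with the other circRNAs of 5 reads, in the middle of a library whose listed circRNAs had a median of 5 reads.

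**Figure D2:**
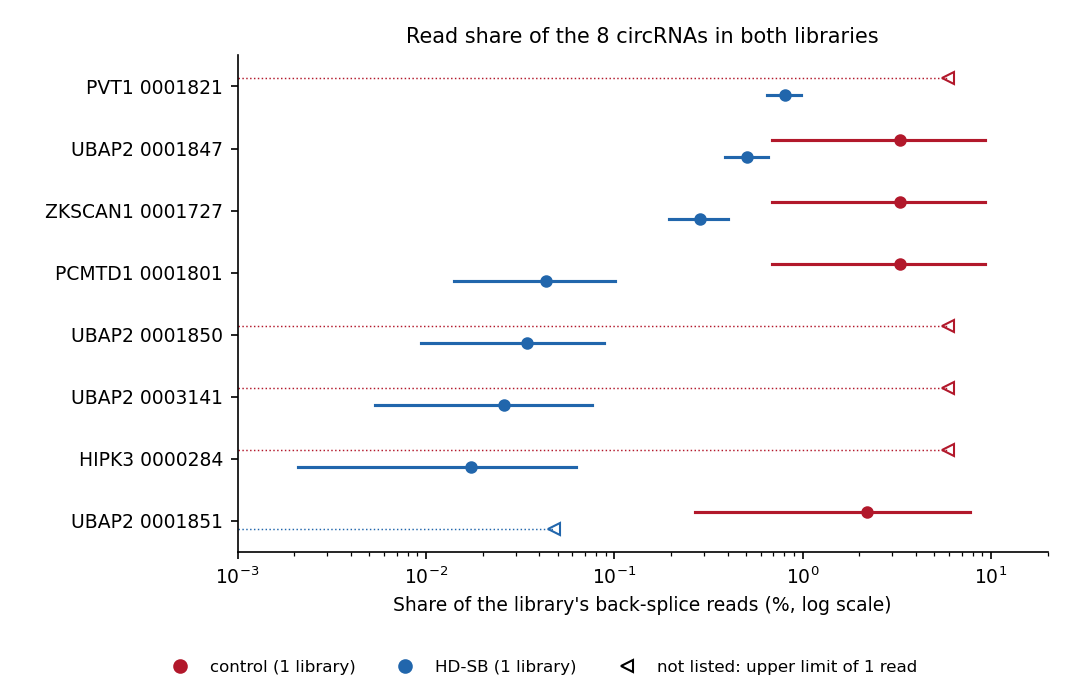
Share of back-splice reads (%, log scale) of the 8 circRNAs in the control library (red) and the HD-SB library (blue), with 95% Clopper-Pearson intervals for counting error; open triangles mark the upper limit for a circRNA that is not listed. The 4 circRNAs listed in the control lie at 2.20% or 3.30% there, while the HD-SB shares run from 0.0173% to 0.804%.

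Side by side, the HD-SB library separated 3 circRNAs with many reads (PVT1 93, UBAP2 hsa_circ_0001847 59 and ZKSCAN1 33) from 4 with 2 to 5 reads. The intervals of PVT1 and UBAP2 hsa_circ_0001847 overlapped, as did those of the latter and ZKSCAN1. The interval of ZKSCAN1 (0.196 to 0.400) lay above that of PCMTD1 (0.0140 to 0.101), and those of PCMTD1, UBAP2 hsa_circ_0001850, UBAP2 hsa_circ_0003141 and HIPK3 overlapped. In the control the listed members had 3, 3, 3 and 2 reads and could not be ordered. The plot of rank against reads shows 3 of the 7 circRNAs listed in HD-SB among the first 29 ranks, PCMTD1 and UBAP2 hsa_circ_0001850 near the middle (41.5% and 53.2% of listed circRNAs had more reads), and UBAP2 hsa_circ_0003141 and HIPK3 below it.

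**Figure D3:**
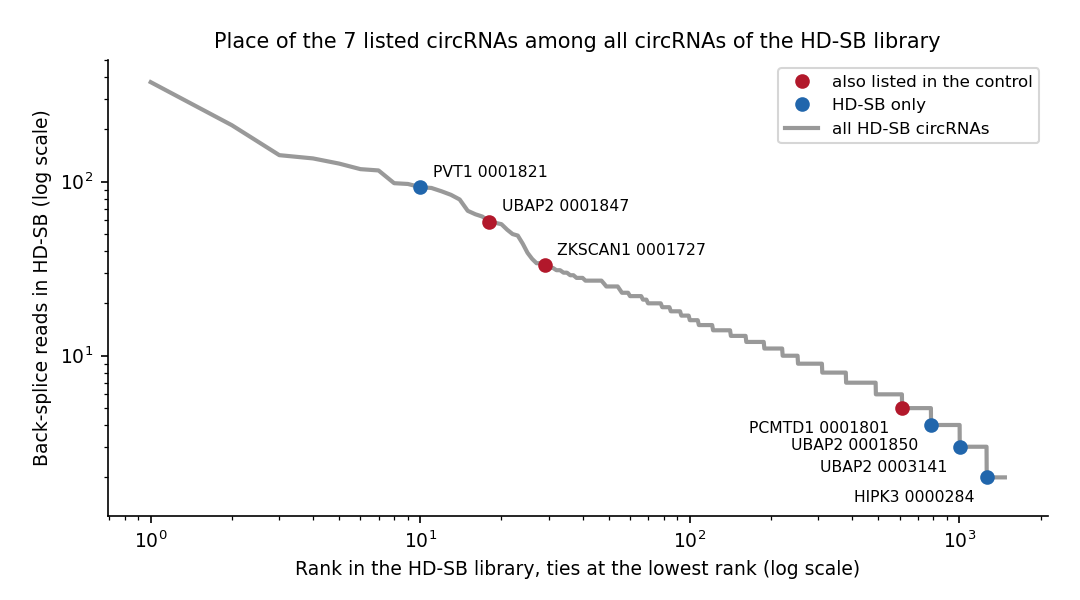
Back-splice reads (log scale) against rank (log scale) for all 1475 circRNAs of the HD-SB library (grey line), with the 7 listed circRNAs of the 5 hosts as points, red where also listed in the control. PVT1, UBAP2 hsa_circ_0001847 and ZKSCAN1 have ranks 10, 18 and 29, and the other circRNAs have 5 reads or fewer.

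Counted over the hosts, 4 of 8 circRNAs were listed in the control, against 2.15% of all 1485, and 7 of 8 were listed in HD-SB, against 99.3%. Summed over the 5 hosts, the control had 11 reads, a share of 12.1% (6.19 to 20.6), and HD-SB had 199 reads, a share of 1.72% (1.49 to 1.97). By the interval of the ratio, the share was smaller in HD-SB for 4 of 8 circRNAs, against 2.02% of all, and larger for none, against 0% of all. These 4 are the 4 listed in the control (ZKSCAN1, PCMTD1 and 2 of UBAP2). Because the control lists nothing under 2.20%, a circRNA listed there has a larger control share almost by construction. The direction of these ratios is thus not a measured response to HD-SB. A larger share in HD-SB could not be called for any circRNA at this depth. The highest HD-SB share in the table was 3.22%. The control interval reaches 5.91% for 1 unlisted read and 7.71% for 2 reads. That none was larger therefore gives no information on circRNAs that rose.

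On the log2(value + 172.861 CPM) scale, where CPM is reads per 1000000 listed back-splice reads, 5 of 8 circRNAs passed a filter on the mean of both libraries (216 CPM). By this rule PVT1 was at least 2-fold higher in HD-SB, at 5.57, beside 96% of all 797 circRNAs that passed. It passed through its HD-SB value of 8038 CPM alone, and 1 unlisted control read would be 10989 CPM, so no direction is read from it. The other 4 were at least 2-fold lower, beside 4.02% of all, at -3.45 for ZKSCAN1, -2.65 for UBAP2 hsa_circ_0001847, -5.78 for PCMTD1 and -7.00 for UBAP2 hsa_circ_0001851. The values of PVT1 and UBAP2 hsa_circ_0001851 are set by the pseudocount and by which library lists them. Those of ZKSCAN1, UBAP2 hsa_circ_0001847 and PCMTD1, listed in both libraries, rest on 3 control reads each. All 4 lower circRNAs are again those of the control list. Over the whole table, the 32 lower circRNAs are likewise the 32 that the control lists. A circRNA that passed and is listed in HD-SB alone is higher by construction of the filter and pseudocount. The 96% and 4.02% thus restate which library lists a circRNA. HIPK3, UBAP2 hsa_circ_0001850 and UBAP2 hsa_circ_0003141 did not pass the filter.

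All 8 circRNAs carried an identifier of circBase, a catalogue of circRNAs, as did 75.6% of the table. A comparison of catalogued with uncatalogued isoforms of these hosts therefore had no members on the second side. ZKSCAN1, HIPK3 and PVT1 each gave only their best described isoform, and these 3 circRNAs held 64.3% of the HD-SB reads of the 5 hosts. The spans ran from 402 bp (PCMTD1) to 19953 bp (UBAP2 hsa_circ_0003141), against a median of 4111 bp over the table. The circles of ZKSCAN1, HIPK3, PVT1 and PCMTD1 were shorter than that median, and 3 of the 4 UBAP2 circles were longer.

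Exon length varied less than span among the exon-matched circRNAs of ZKSCAN1, HIPK3, PCMTD1 and UBAP2. It ran from 159 to 1099 nt over 7 circRNAs with a median of 402 nt, beside 371 nt over all 1230 matched circRNAs. UBAP2 hsa_circ_0001851 was near the short end of the table, with only 0.650% of matched circRNAs shorter. HIPK3 and PCMTD1 were 2 of the 78 matched circles made of 1 exon, which were 6.34% of all. The circles of ZKSCAN1 and HIPK3 began at exon 2, as did 29.9% of all matched circRNAs, and that of PCMTD1 began at exon 3. The introns before the circles ran from 7692 bp (ZKSCAN1) to 28523 bp (HIPK3), each above the median of 7354.5 bp over all matched circRNAs, and that of HIPK3 was longer than 85.6% of them. The introns after the circles ran from 4679 bp (UBAP2 hsa_circ_0001850) to 40998 bp (HIPK3) and lay on both sides of the median of 6689 bp. With 4 hosts and 1 intron shared by 3 UBAP2 circles, these are descriptions and were not tested.

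**Figure D4:**
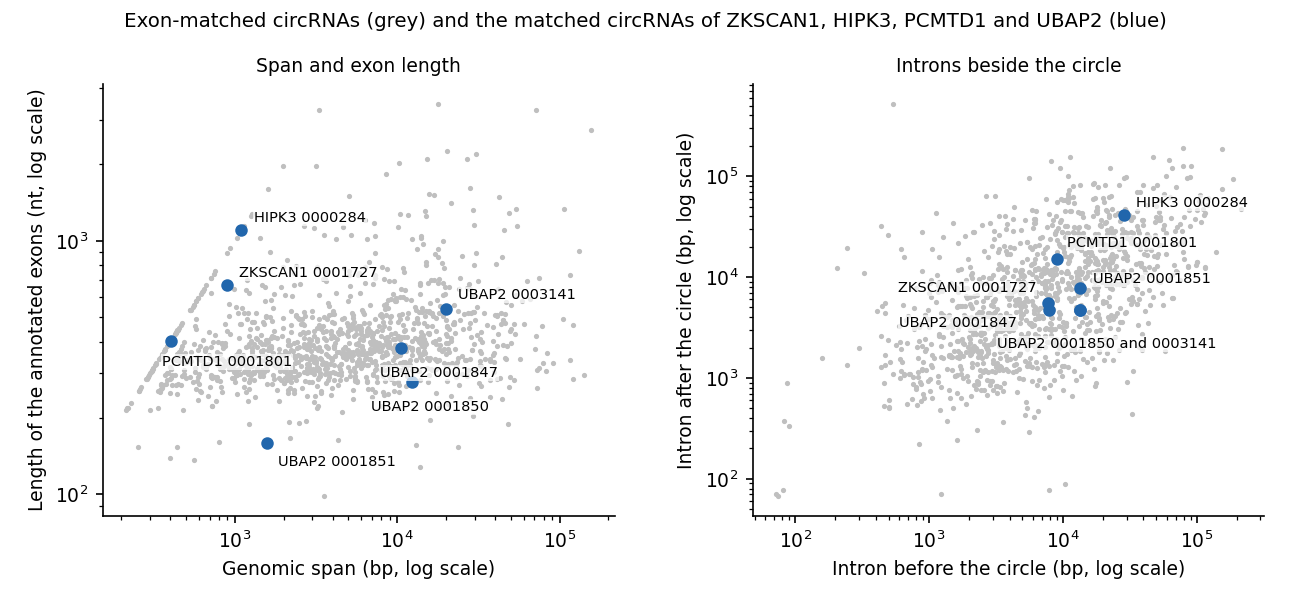
Left, length of the annotated exons (nt) against genomic span (bp); right, length of the intron after against the intron before the circle (bp); all axes are log scales, grey points are the 1230 exon-matched circRNAs and blue points the 7 matched circRNAs of ZKSCAN1, HIPK3, PCMTD1 and UBAP2. The 2 single-exon circles of HIPK3 and PCMTD1 lie on the left edge, where exon length equals span, while the 10507 to 19953 bp of 3 UBAP2 circles hold 278 to 536 nt of exon.

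The title of the series names the microRNA hsa-miR-204-5p, and circHIPK3 has been described as a partner of hsa-miR-7-5p, so the annotated exons of the 7 matched circRNAs were searched for the complement of both seeds (bases 2 to 8, capitals), on the transcribed strand and across the junction. A back-splice read does not show which inner exons a circle holds, so the annotated ones were assumed.
hsa-miR-204-5p: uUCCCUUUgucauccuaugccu
hsa-miR-7-5p: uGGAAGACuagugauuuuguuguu

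The complement of the hsa-miR-204-5p seed, AAAGGGA, was found in 0 of the 7 circRNAs and in 4.39% of all 1230 matched circRNAs. Among matched circRNAs of 80% to 125% of the length of the HIPK3 circle, 9.30% held it, and for the length of the ZKSCAN1 circle 8.40% did. The complement of the hsa-miR-7-5p seed, GTCTTCC, was also found in 0 of the 7, against 3.82% of all, 6.98% at the length of the HIPK3 circle and 7.63% at that of ZKSCAN1. The microRNA sequences are from RefSeq (GRCh38.p14). A search for 7 letters describes these exons only and leaves other kinds of pairing unexamined.

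Other hosts of well-described circRNAs, a list of 54 genes, gave 46 circRNAs from 33 genes, of which 44 had a circBase identifier. Their reads numbered 28 in the control, a share of 30.8% (21.5 to 41.3), and 600 in HD-SB, a share of 5.19% (4.79 to 5.61). Of these 46 circRNAs, 8 were listed in the control (17.4%), beside 4 of 8 for ZKSCAN1, HIPK3, UBAP2, PVT1 and PCMTD1 and 2.15% of the whole table. The list was chosen with earlier results of these data known, so these counts and shares are descriptions and were not tested. In HD-SB the most abundant were those of CAMSAP1, which binds microtubule ends (hsa_circ_0001900, 118 reads), and SMARCA5, a chromatin remodelling ATPase (hsa_circ_0001445, 88 reads), which bracket PVT1 with its 93 reads. The circle of CDYL, a chromodomain protein (hsa_circ_0008285), had 3 control and 16 HD-SB reads and matched exon 2 alone, like that of HIPK3.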

How the data were processed

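Both libraries are columns of 1 deposited table. The headers say TPM, but the columns deposited by the authors add up to 1000000 each and are CPM, reads per 1000000 listed back-splice reads. Dividing by the value of 1 read (10989 CPM in the control, 86.4 CPM in HD-SB) gave whole reads for 100% of listed values, to within 0.01 read. The value 0.001 was read as not listed. The submitters' processing notes name FastQC, HISAT2 2.1.0 and GRCh38 but not what each was used for. Which program called circRNAs is not given in the sources used here.

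The members and gene lists were chosen with earlier results of these data known, and the exon match and seed search were added after the data were seen. Every member is named. Shares have 95% Clopper-Pearson intervals; ratios have one conditional on the reads of both libraries, taking 0 and 1 read for a circRNA that is not listed. Spans (end minus start plus 1) were compared with exon pairs of the same host and chromosome in GENCODE 29, older symbols included; exon numbers follow a basic, principal transcript. The interval rule was tried on simulated libraries that each had the HD-SB total of 11570 reads, so its behaviour at 91 control reads was not covered. The exon match was tried on made-up transcripts. No significance test was made, since each group has 1 library. Alternatives covered the host rule, denominators, scaling, pseudocount, filter, fold and ties. Python 3.11.15, pandas 2.3.3 and scipy 1.17.1 were used.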

Additional observations from a re-analysis of the deposited data

How the results depend on the processing

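The 91 control reads limit every comparison between the libraries, and the ratio of each circRNA listed in the control rests on 2 or 3 control reads. No paired analysis was possible because there was only 1 library on each side. Including circRNAs with several host names changed no count or share. The 12.1% of control reads on the 5 hosts became 21.2% without the 10 circRNAs with the most reads, and stayed within its interval under the other settings (6.59% without UBAP2). In the control, 13 circRNAs tied at 3 reads in ranks 6 to 18, ZKSCAN1, PCMTD1 and UBAP2 hsa_circ_0001847 among them. Which of these were left out was set by tie order. The 21.2% keeps all members, and a tie order that left out a member would give a lower share. The 1.72% of HD-SB reads became 1.05% without the 10 most abundant, which include PVT1, 2.05% among circRNAs with a circBase identifier, 1.43% without ZKSCAN1, 1.15% without UBAP2 and 0.916% without PVT1, each by construction of the sum. With HD-SB thinned to the control total, 0.273 of the 7 circRNAs would be expected in its list, through fewer reads. The 100% of HD-SB reads on isoforms with a circBase identifier became 64.3% when only the best described isoforms of ZKSCAN1, HIPK3 and PVT1 were counted, with none taken for UBAP2 and PCMTD1. Scaling by the median ratio (a factor of 0.0406 on the control) moved single circRNAs. The log2 ratio of HD-SB to control turned from -3.53 to 1.09 for ZKSCAN1 and from -2.69 to 1.93 for UBAP2 hsa_circ_0001847. For PCMTD1 it went from -6.25 to -1.63. After scaling, the intervals of ZKSCAN1 and PCMTD1 took in an equal share, and that of UBAP2 hsa_circ_0001847 did not. That factor is the median of the 22 circRNAs in both libraries, so some of them turn by construction. By the size rule, 765 of the 797 circRNAs that passed the filter were higher in HD-SB. The number fell to 296 when the pseudocount was made 4 times larger. It fell to 366 under the stricter filter, which tested fewer circRNAs, and rose to 1453 of 1485 without a filter. For the 5 hosts, 1 of 5 circRNAs that passed was higher, and 4 of 8 without a filter. That added HIPK3, UBAP2 hsa_circ_0001850 and UBAP2 hsa_circ_0003141, with 2 to 4 HD-SB reads and no control listing. Their values are set by the pseudocount. The remaining counts, shares and ranks stayed within 1.5 times or within their interval.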

Other observations

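The exon match also places the other circRNAs of the control library, and these values were looked at after the data were seen. Of the 30 control circRNAs with 1 matching exon pair, 17 began at exon 2, 56.7%, beside 29.75% of the 1220 matched circRNAs of HD-SB. The median intron before the circle was 18258 bp in the control list and 7307 bp in the HD-SB list, and the median exon length was 435 nt and 371 nt. Of the members listed in the control, only ZKSCAN1 began at exon 2, while PCMTD1 began at exon 3 and those of UBAP2 at exons 7 and 9. The lists share 22 circRNAs and differ in depth, and the difference was not tested.

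Of 10 genes for factors that act in circRNA formation or splicing, 1 gave a circRNA. This was MBNL1, a splicing factor (hsa_circ_0001349, exons 3 and 4), with 5 HD-SB reads and no listing in the control.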
